A study of Ornithorhynchus anatinus with 3 samples.

Results

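The mitochondrial genome of the platypus (Ornithorhynchus anatinus) is represented by 37 of the 22369 loci of the ovary table. These are all loci placed on the sequence named MT, in the gene models of Ensembl release 57. They comprise 15 loci longer than 80 bp, which correspond to 13 protein-coding genes and 2 rRNA genes, and 22 loci of up to 80 bp, which correspond to tRNA genes. Expression was measured by RNA-seq, with mRNA-Seq libraries made from total RNA, in 1 ovary library (an ovary labelled "Ovulating", animal Female1), 1 library of male fibroblasts (animal Male1) and 1 library of female fibroblasts (animal Female2, also labelled "Ovulating"). All animals were adults captured in New South Wales, and no treatment is named for any library. Fibroblasts, cells of connective tissue, are readily kept in culture, and the authors' paper calls the platypus fibroblasts a cell line. RNA integrity numbers were 9.3 in ovary, 8.9 in male and 9.9 in female fibroblasts. With 1 library per group there is no replicate error, so the values below carry no p-value. Sex cannot be told apart from animal. Tissue cannot be told apart from animal, from cell culture or from the way each table was made.

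In vertebrates the mitochondrial genome is a small circle that is transcribed from both strands into long precursor RNAs. These precursors are cut, largely at the tRNAs lying between the other genes, into rRNAs for the mitochondrial ribosome, tRNAs, and mRNAs for subunits of the respiratory chain. Most of the mRNAs, and the rRNAs, receive short poly(A) tails. The genes named ND encode subunits of complex I, CYTB a subunit of complex III, the COX genes subunits of complex IV, and ATP6 and ATP8 subunits of the ATP synthase. Of the protein-coding genes, ND6 is the one encoded on the other strand. In bulk samples, fewer mitochondria per cell and less RNA per mitochondrion cannot be told apart.

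The names of the loci rest on position. In the RefSeq gene table of the mOrnAna1.pri.v4 assembly, 13 mitochondrial protein-coding genes are listed, and 13 of the 13 starts and 11 of the 13 ends equal those of the loci described here. The end of ND4 differed by 5 bp and that of COX3 by 1 bp. The rRNA and tRNA loci were named by their length and by the gene order that most vertebrates share. Their Ensembl identifiers run without a gap from ENSOANG00000019393 (tRNA-Phe, positions 1 to 72) down to ENSOANG00000019357 (tRNA-Pro, positions 15394 to 15460). The longest loci are ND5 (1815 bp, positions 11803 to 13617), 16S rRNA (1562 bp, 1082 to 2643) and COX1 (1542 bp, 5389 to 6930), whereas ATP8 (210 bp, 7829 to 8038) is the shortest protein-coding locus. Mitochondrial genes have no introns, so each locus is a single exon. Neighbouring loci overlap at 12 places, by 46 bp for ATP8 and ATP6 and by 7 bp or less elsewhere, and reads in an overlap could belong to either gene.

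In the fibroblasts, every rRNA and protein-coding locus that had a value was expressed, and the levels differed widely between genes of the same circle. The unit is RPKM, a number of reads scaled both to exon length and to the mapped reads of the library. Both fibroblast tables list all 37 loci, but ND1 and COX3 carry the code -1 in place of a value in both, which leaves 35 loci. A code of this kind occurs for 7 genes in all, and its meaning is not given in the sources used here. Across the 11 protein-coding loci with a value, the RPKM ranged from 43.8 to 1141 in male fibroblasts, with a median of 137, and from 70.4 to 1519 in female fibroblasts, with a median of 167. These medians were 12.6 and 13.3 times the median RPKM of autosomal genes above 0 in the same library, which was 10.8 in males and 12.5 in females. Among nuclear genes above 0 in the same library, 7 of the 11 loci ranked above the 90th percentile in males and 9 of 11 did so in females.

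ATP8 and COX1 stood far above the rest. ATP8, an accessory subunit of the ATP synthase, had an RPKM of 1141 in male and 1519 in female fibroblasts. COX1, the catalytic subunit of complex IV, had an RPKM of 929 in male and 988 in female fibroblasts. The next locus in both libraries was ND5, a core membrane subunit of complex I, with 365 in males and 400 in females, so that COX1 exceeded it 2.47-fold in females. Together, ATP8 and COX1 made up 61.7% of the summed RPKM of the protein-coding loci in females. Because RPKM is a level per length, the short ATP8 weighs less in reads. Weighted by locus length, ATP8 held 7.66% of the protein-coding signal in males and 8.98% in females, and COX1 held 45.9% and 42.9%.

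ATP8 shares bases with ATP6, which encodes the proton channel subunit of the same enzyme and had an RPKM of only 137 in male and 167 in female fibroblasts. A bound can be set by supposing that every base counted for ATP6 lay in the shared 46 bp and was counted for both genes. The 164 bp that belong to ATP8 alone would then have a level of at least 892 RPKM in males and 1254 RPKM in females. That is 6.51 and 7.53 times the RPKM of ATP6, against 8.33 and 9.12 times for ATP8 as listed. In vertebrates ATP8 and ATP6 are carried on a shared mRNA. This bound takes the locus length as the length behind the RPKM. It holds only if shared bases were counted for both genes, which was not tested, and neither was the part of the overlap in the level of ATP8.

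The other subunits of complex IV and complex I had moderate levels. COX2, the copper-binding subunit that takes electrons from cytochrome c, had an RPKM of 71.5 in male and 70.4 in female fibroblasts, so that COX1 exceeded COX2 14.0-fold in females. For the complex I subunits, ND4 had 181 in males and 235 in females, and ND2 had 125 and 169. ND4L, which overlaps the start of ND4 by 7 bp, had 84.2 and 125, and ND3 had 43.8 and 73.1. ND6, the gene of the opposite strand, had 70.2 in males and 163 in females. CYTB, which carries electrons within complex III, had 167 and 156. CYTB and COX2 were thus the 2 protein-coding loci with a higher RPKM in males, and the other 9 had a higher RPKM in females. The library protocol was a directional one, and the fibroblast data are described as strand-specific. Whether the counting made use of strand is not stated, and if it did not, RNA of ND6 and RNA of the opposite strand at the same bases cannot be told apart. In females, ND2, ATP6, ND6 and CYTB were neighbours in level, between 156 and 169 RPKM, while in males ND6 lay well below the other 3.

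**Figure D1:**
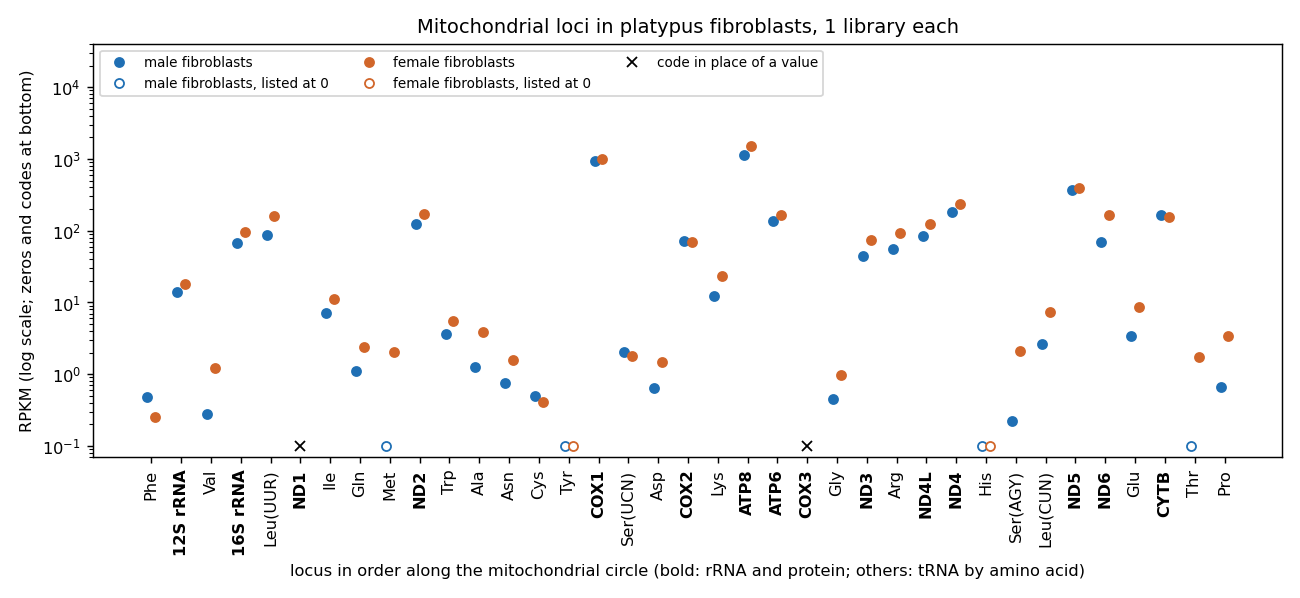
RPKM (log scale) of the 37 mitochondrial loci in their order along the circle, in 1 male and 1 female fibroblast library (points). Open points at the bottom are loci listed at 0 and crosses are the 2 loci with a code in place of a value; ATP8 and COX1 stand highest, while most tRNA-sized loci lie near 1 RPKM, far below their neighbours.

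Depth can be recovered in part from the fibroblast values. RPKM times locus length moves in steps of 1 constant. The size of this step was set so that its most frequent multiple among low nuclear loci equalled a read length named for these libraries. This gave 76 in both libraries, so the match to a read length was imposed and is no check of the step. On this reading, in which the constant is 1 covered base, the male library had 19.6 M and the female library 23.8 M mapped reads of 76 bases. Of the nuclear loci examined, 40.6% of 355 in males and 38.4% of 383 in females came out whole to within 0.01, against 1.04 to 2.25% when the step was set 1% too small or too large. The step was fitted to low nuclear loci for the most whole values, so these shares only describe the fit. Mitochondrial loci took no part in the fit. Of the tRNA-sized mitochondrial values above 0, 14 of 18 in males and 14 of 20 in females were whole. All mitochondrial loci together then held 63730 read equivalents in males, which is 0.326% of mapped bases, and 89161 in females, which is 0.374%. COX1 alone took 44.0% of these bases in males and 40.7% in females.

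The 2 rRNA loci had a lower RPKM than most protein-coding loci. Because these are mRNA-Seq libraries, the values need not give the abundance of rRNA against mRNA in the cells. How well each kind of RNA was captured was not tested. 12S rRNA, of the small ribosomal subunit (943 bp, positions 73 to 1015), had an RPKM of 13.9 in male and 17.9 in female fibroblasts, the lowest values among the longer loci. 16S rRNA, of the large subunit, had 68.2 and 96.2, or 5.37 times the level of 12S in females. Relative to the median of the protein-coding loci, 12S rRNA stood at 0.101 in males and 0.108 in females and 16S rRNA at 0.498 and 0.578. Among nuclear genes above 0, 12S rRNA ranked at the 56.2nd percentile in males and at the 60.8th in females.

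The tRNA-sized loci were mostly near the floor of the measurement, with 3 clear exceptions. tRNA-Leu(UUR), which lies between 16S rRNA and ND1, had an RPKM of 87.1 in male and 162 in female fibroblasts. tRNA-Arg, between ND3 and ND4L, had 55.3 and 92.6. tRNA-Lys, which overlaps the end of COX2 by 5 bp, had 12.1 and 23.4. These 3 were the highest in both libraries. All of them abut or overlap longer loci, as the low tRNA-Phe and tRNA-Val also do. Whether their reads come from tRNAs or from longer RNAs running through them was not tested.

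At the low end, tRNA-Tyr and tRNA-His were listed at 0 in both libraries, and tRNA-Met and tRNA-Thr were listed at 0 in males but at 2.01 and 1.71 in females. Above 0, the 3 lowest values in males were those of tRNA-Ser(AGY) (0.220), tRNA-Val (0.275) and tRNA-Gly (0.452). In females they were those of tRNA-Phe (0.253), tRNA-Cys (0.411) and tRNA-Gly (0.987). In all, 18 of the 22 tRNA-sized loci were above 0 in males, with a median of 1.18 RPKM among those, and 20 of 22 in females, with a median of 2.24. The values behind these medians are thin. Of the loci above 0, 7 in males and 2 in females held less signal than 1 full read of 76 bases. All 22 loci are shorter than such a read, the longest being tRNA-Leu(UUR) at 75 bp. A read therefore adds fewer than 76 bases to them, and their read equivalents undercount the reads behind them. Together the tRNA-sized loci held 0.395% of the mitochondrial bases in males and 0.639% in females. Nuclear loci of up to 80 bp were above 0 less broadly, in 64 of 201 cases in males and in 69 of 201 in females, with medians of 1.90 and 1.72 RPKM among those above 0.

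Levels were ordered alike in the 2 fibroblast libraries. Over the 35 loci with a value, Spearman's rho between male and female RPKM was 0.952, over the 13 rRNA and protein-coding loci it was 0.907, and over the 22 tRNA-sized loci it was 0.838. These values describe 2 libraries over loci that share one genome, one read length and one set of gene models.

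The comparison of male and female fibroblasts asks whether the loci of the circle differ together between the sexes. For each locus with signal in both sexes, the M:F ratio of RPKM was set relative to that of autosomal genes, whose median over 1655 genes was 0.875. Of 12909 genes above 0 in both libraries, 7.17% had a relative ratio of at most 0.5 and 11% one of at least 2. The intervals are exact binomial ones over read equivalents and cover counting error only. For the 11 protein-coding loci the ratio ranged from 0.492 to 1.23 with a median of 0.883, and 1 of them reached 0.5.

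That locus was ND6, with a ratio of 0.492 (95% interval 0.451 to 0.537). Its 70.2 RPKM in males rested on 688 read equivalents and its 163 RPKM in females on 1945. ND3 followed at 0.686 (0.595 to 0.789) and ND4L at 0.772 (0.690 to 0.863). ND2 (0.847), ATP8 (0.858), ND4 (0.883) and ATP6 (0.941) lay closer to 1. At the other end stood CYTB at 1.23 (1.17 to 1.28), COX2 at 1.16 (1.07 to 1.27), COX1 at 1.08 (1.06 to 1.09) and ND5 at 1.04 (1.02 to 1.07). Under this scaling none of the 11 intervals included 1.

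The side of 1 depended on the reference for the loci nearest to it. The median relative ratio over all 12909 genes was 1.11, so a scaling on all nuclear genes shifts each log2 ratio by 0.15 in the opposite direction. COX1 stood at 0.972 and ND5 at 0.943 when all nuclear genes were the reference, and at 0.941 and 0.913 without any division. CYTB remained above 1 in all 5 scalings, between 1.07 and 1.23, as did COX2, between 1.02 and 1.16. The autosomal factor, 0.875, was the smallest of the 5, so every other scaling could only lower a ratio. That ND6 stayed at or below 0.492, and that the 7 loci below 1 stayed below 1, was therefore fixed in advance. Summed over the 11 loci, of which COX1 and ND5 carried most reads, the read equivalents gave a ratio of 1.01 (0.995 to 1.02).

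For 16S rRNA the relative M:F ratio was 0.811 (0.768 to 0.856), and for 12S rRNA it was 0.885 (0.755 to 1.04). The 18 tRNA-sized loci above 0 in both libraries had a median of 0.533, with 15 below 1, 7 at or below 0.5 and 1 at or above 2. Over all genes, 7.17% were at or below 0.5 and 11% at or above 2, but these genes are not matched to the tRNA-sized loci on length or depth. The tRNA-sized counts rest on thin values. Because these loci are shorter than a read, their read equivalents undercount reads. The intervals given for them are therefore not those of counted reads. Among the 7, tRNA-Val, tRNA-Ser(AGY), tRNA-Asp and tRNA-Pro held less than 1 read equivalent in males. The locus above 2, tRNA-Phe, held 0.684 read equivalents in males and 0.434 in females. Summed over all 22, there were 252 read equivalents in males and 570 in females, a relative ratio of 0.615 (0.528 to 0.715). tRNA-Leu(UUR), with 128 read equivalents in males and 290 in females, had a ratio of 0.613 (0.495 to 0.759), and tRNA-Arg, with 74.6 and 152, had 0.683 (0.514 to 0.911). For every other tRNA-sized locus with at least 1 read equivalent in both libraries the interval included 1. Nuclear loci of up to 80 bp had a median ratio of 1.15 over 60 loci, with 27 of them below 1. Their share at or below 0.5 was not counted. RNA integrity also differed between the 2 libraries, 8.9 in males and 9.9 in females, and its part in these ratios was not tested.

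**Figure D2:**
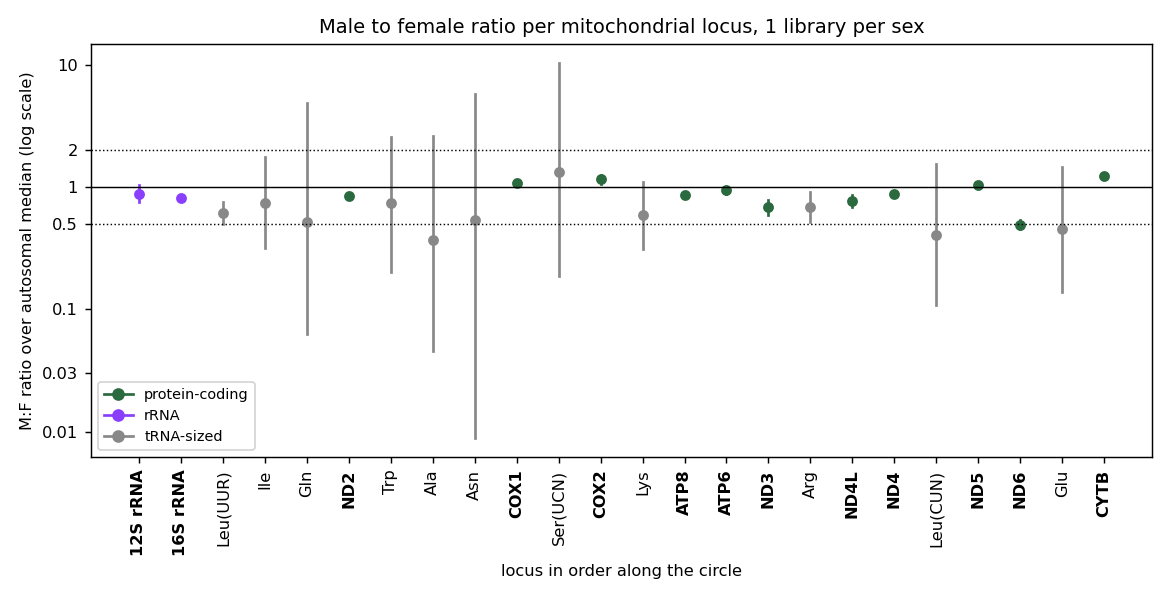
Relative M:F ratio (log scale) of the mitochondrial loci with at least 1 read equivalent in both libraries, in their order along the circle. Points are ratios over the autosomal median and lines are 95% intervals for counting error only, with a solid line at 1 and dotted lines at 0.5 and 2. ND6 is lowest among the protein-coding loci at 0.492. The tRNA-sized loci have wide intervals, and these rest on read equivalents that undercount reads at loci shorter than a read.

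In the ovary table the mitochondrial loci had values at or close to 0. How completely the ovary reads were mapped and counted on the mitochondrial sequence is not given in the sources used here and was not tested. The values and fold differences below are therefore those of the deposited table, and cannot be read as levels in the tissue. The unit there is FPKM, the same quantity counted in fragments, which the table gives with limits and a status for each locus. All 37 loci had the status OK. Of these, 27 were at 0, namely 12S rRNA, ATP8, ND3, ND4L, ND6 and the 22 tRNA-sized loci, and 10 were above 0. CYTB was highest with an FPKM of 0.431 (limits 0.192 to 0.670). ND1, which had no fibroblast value, followed with 0.330 (0.0967 to 0.563), and 16S rRNA with 0.319 (0.149 to 0.490). These were the 3 loci with a lower limit above 0. For comparison, the median FPKM of autosomal genes above 0 in this library was 13.5.

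The other 7 loci above 0 had lower limits at 0. Their FPKM was 0.131 for ATP6, 0.127 for COX2, 0.107 for COX3, 0.0384 for ND5, 0.0370 for ND2, 0.0263 for ND4 and 0.0232 for COX1. ND2, ND4 and COX1 rest on 1 fragment each, so their order follows from locus length alone. COX1 was the second highest protein-coding locus of both fibroblast libraries. Among nuclear genes above 0 in the ovary, CYTB lay at the 11.5th percentile and COX1 at the 0.469th.

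**Figure D3:**
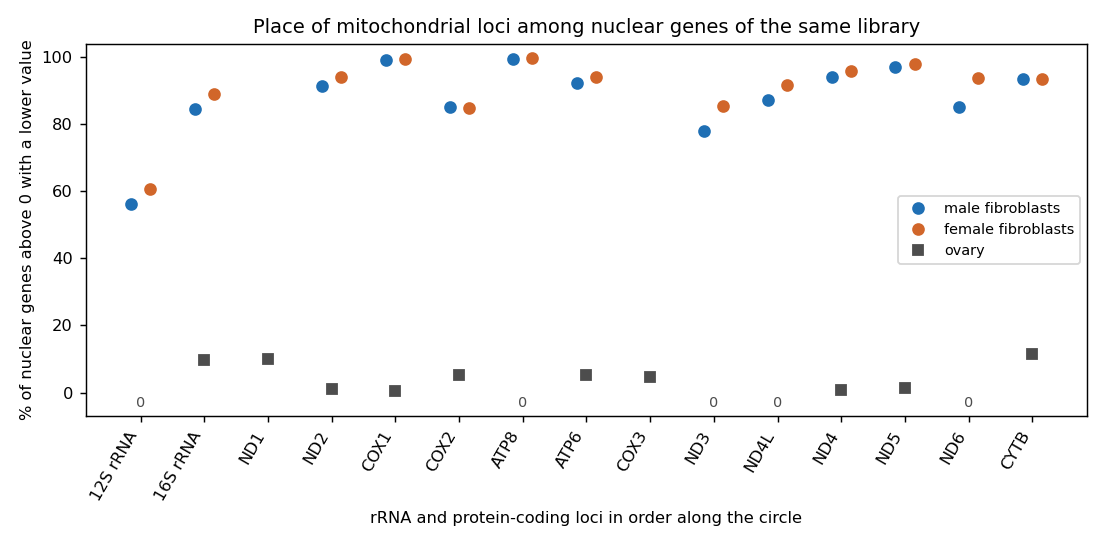
Percentage of nuclear genes above 0 in the same library that have a lower value than each of the 15 rRNA and protein-coding loci, in ovary (squares), male and female fibroblasts (circles). In fibroblasts the loci lie between 56.2 and 99.8%, in ovary at 11.5% or below, and a 0 under the axis line marks a locus listed at 0 in ovary; ND1 and COX3 have no fibroblast value.

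The ovary limits show how few fragments these values rest on. They lie at 2 square roots of a fragment number on each side, and solving for that number gave whole fragments to within 7.6e-05 for all 10 loci: 14 for 16S rRNA, 13 for CYTB, 8 for ND1, 4 each for ATP6 and COX3, 2 each for COX2 and ND5, and 1 each for ND2, COX1 and ND4. In all this makes 50 fragments (95% Poisson interval 37.1 to 65.9), of which 16S rRNA, CYTB and ND1 held 35. For 8 of the loci, the reciprocal of the FPKM worth of 1 fragment followed a straight line in locus length to within 0.00015%. The line gives 32.4 M mapped fragments for this library and implies that 209 bp were subtracted from each locus length. The 50 fragments are therefore 0.000154% of the mapped fragments (0.000115 to 0.000204%). ATP6 and COX3, which overlap by 1 bp, lay off this line, and it gives 2 fragments for each of them rather than 4, or 46 in all. The total of 50 from the limits, and the share and interval drawn from it, may therefore count fragments of these 2 loci more than once.

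The same line limits what the zeros mean. All 22 tRNA-sized loci are shorter than the 209 bp subtracted, and ATP8 keeps 1.46 bp, so that on this line little or no length is left for these loci. Nuclear loci of up to 80 bp were above 0 in 3 of 319 cases, with a median FPKM of 3871 among those 3 and a maximum of 18193.5. A locus of this size can therefore receive a value, and a high one. The part of the subtraction in the zeros of the tRNA-sized loci was not tested. For the other 4 loci at 0, a count of 0 allows up to 3 fragments, which correspond to an FPKM of 0.126 for 12S rRNA, 0.317 for ND6, 0.664 for ND3 and 1.05 for ND4L. At these upper limits they were still lower than in female fibroblasts by at least 167-fold for 12S rRNA, 606-fold for ND6, 130-fold for ND3 and 140-fold for ND4L, relative to autosomal genes.

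**Figure D4:**
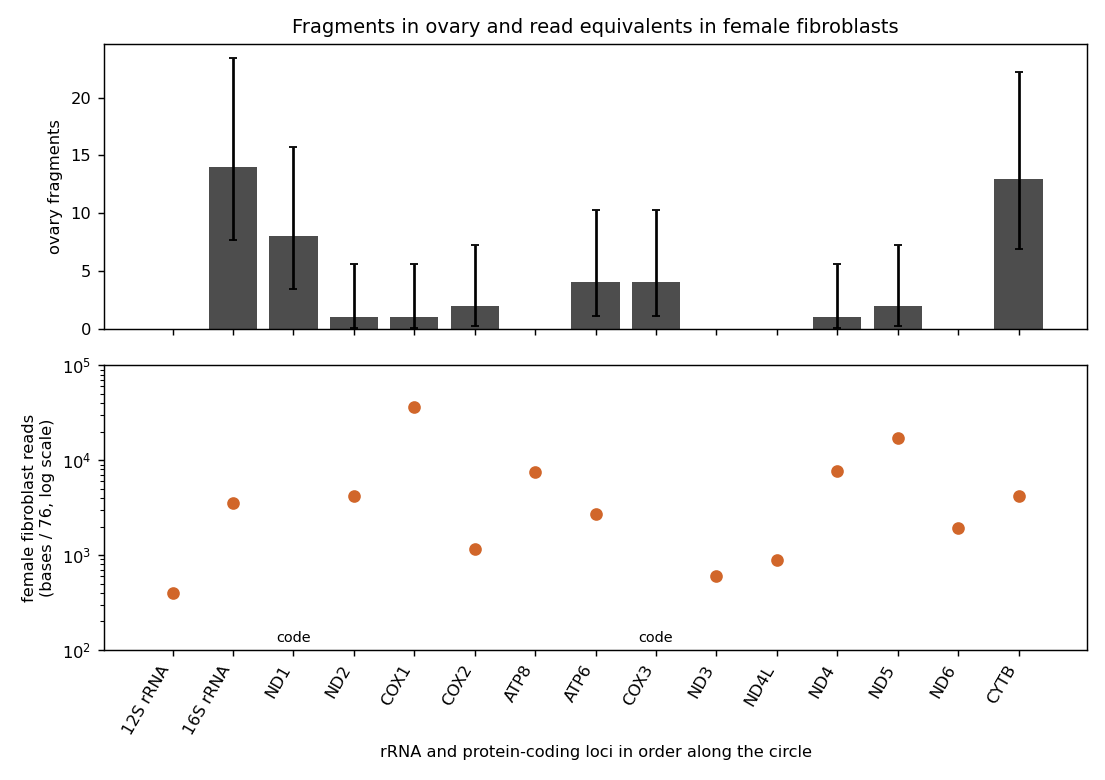
Upper panel: fragments per locus in the ovary library (bars, with exact 95% Poisson intervals), which reach 14 for 16S rRNA and 13 for CYTB. ATP6 and COX3 are drawn at the 4 fragments each that their limits give, which may count the same fragments for both. Lower panel: read equivalents of the same loci in female fibroblasts (log scale), from 402 for 12S rRNA to 36272 for COX1; "code" marks ND1 and COX3, which have no value there.

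The comparison of ovary with fibroblasts sets the deposited values of the circle side by side, and cannot show how levels differ between the tissues. Since FPKM and RPKM come from separate tables, it is given relative to the median ratio of autosomal genes (1.18 over 1732 genes for ovary against female fibroblasts, 1.43 over 1690 for ovary against male fibroblasts). All 8 loci above 0 in both tables were lower in ovary, each with a relative ratio of at most 0.01. The relative ratio to female fibroblasts was 2.0e-05 for COX1, 8.2e-05 for ND5, 9.5e-05 for ND4, 0.000186 for ND2, 0.000667 for ATP6, 0.00154 for COX2, 0.00235 for CYTB and 0.00282 for 16S rRNA. Put the other way, COX1 was 50266-fold, ND4 10539-fold, CYTB 425-fold and 16S rRNA 355-fold higher in female fibroblasts, although the ovary values of COX1 and ND4 rest on 1 fragment each. A ratio of at most 0.5 was found for 26.5% of 13094 genes, but one of at most 0.01 for 0.283%, or 37 genes, of which 8 are these mitochondrial loci. Against male fibroblasts the 8 loci ranged from 1.7e-05 to 0.00328, where 33.4% of genes were at or below 0.5 and 0.418% at or below 0.01. The 2 comparisons share the ovary library.

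Zeros in ovary were also counted among loci with signal in the fibroblasts. Of 6325 loci longer than 80 bp with an RPKM of at least 10 in both fibroblast libraries, 0.332% were at 0 in ovary, that is 21 loci, and 5 of these are among the 13 mitochondrial ones. One of the 5 is ATP8, of whose length 1.46 bp is left after the subtraction, and without it 4 of 12 remain. The minimum of 10 RPKM lies far below the mitochondrial protein-coding medians of 137 and 167, so this class is not matched on level. Nuclear loci of 200 to 2000 bp in this class were at 0 in 4 of 559 cases.

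An order of the loci could not be compared closely between ovary and fibroblasts. Over the 12 rRNA and protein-coding loci with values in all tables other than ATP8, of which 4 are tied at 0 in ovary, Spearman's rho of ovary FPKM was 0.13 with female and 0.35 with male fibroblast RPKM. With ATP8 these values were -0.02 and 0.16. Counted in ovary fragments, 13 fell in CYTB and 1 in COX1, whereas female fibroblasts had 4222 read equivalents in CYTB and 36272 in COX1. With so few fragments in ovary, the depth does not allow an order among the 7 loci with a lower limit at 0. Tissue, cell culture, animal and the software behind each table differ together between ovary and fibroblasts and cannot be told apart.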

How the data were processed

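The authors deposited 1 table per library, based on gene models refined from Ensembl release 57. The deposited ovary values are FPKM, with limits and a status in the layout of Cufflinks, and the fibroblast values deposited by the authors are RPKM (a score here, because the code -1 stands in for some of them). The submitters' processing notes name Bowtie, TopHat 1.0.13 and Cufflinks 1.0.3, without saying which table each was used for. The labels give 76 or 80 sequencing cycles. Whether counting used strand, and how reads with several hits were treated, is not given in the sources used here, and both could change the values of overlapping loci and of loci with nuclear copies.

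Groups followed the labels. Locus starts were converted to count from 1. Of 22373 ovary rows, 4 repeats were dropped. Ratios used values above 0 in both libraries, divided by the median ratio of numbered autosomes, and with 1 library per group no test was run. A ratio of at least 2 or at most 0.5 counted as called. All loci longer than 80 bp are named, with the 3 highest and 3 lowest tRNA-sized loci above 0 in each fibroblast library and those at 0, and the tRNA-sized loci at 0 in ovary are named as a class. The members, lists and rules were chosen with earlier results of these data known. The recovery of read equivalents, the limit of 0.01 and the minimum of 10 RPKM for backgrounds, the bound for ATP8, the intervals over read equivalents, the omission of ATP8 from 2 comparisons with ovary and that of ATP6 and COX3 from the ovary line were set after the values had been seen. Read equivalents take the locus length as the length used by the authors, which does not hold for some short loci such as tRNA-Cys (48.3 bases in both libraries). The step of the fibroblast values was taken as 1 base because its most frequent multiple then is 76, although multiples of 0.5 also occur. Counting intervals at 95% (exact binomial or Poisson) and limits of 3 counts cover counting error only. At tRNA-sized loci, which are shorter than a read, the binomial intervals rest on read equivalents that undercount reads. The recovery steps were tested on simulated data, in which loci of 1 read were made the most frequent after a first version had returned a multiple of the true step. Nuclear genes could not be named, so nuclear genes of the respiratory chain are not analysed here, and no sequences are printed. Alternatives changed the reference genes, the scaling, filters on low values, overlapping loci, the pseudocount and the tolerances. Computations ran in Python (3.11.15) on pandas (2.3.3), numpy (2.4.6) and scipy (1.17.1), and plots were drawn in matplotlib (3.10.9).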

Additional observations from a re-analysis of the deposited data

How the results depend on the processing

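With no replicates, a value was counted as kept when it stayed within 1.5 times that reported, which held for 41 of 66 alternatives. None turned a called direction, but a turn could be counted only for reported values of at least 2 or at most 0.5. The M:F median of the protein-coding loci lies between these limits and could not be counted, so the lack of turns says little. No paired analysis was possible because there is a single library per group. The protein-coding M:F median of 0.883 ranged from 0.772 to 0.887 under other scalings and filters but was 1.08, across 1, without the protein-coding loci that overlap another protein-coding locus. This setting leaves ND2, ND3, COX1, COX2 and CYTB in the fibroblasts, of which all but COX1 still overlap a tRNA-sized locus by up to 5 bp, and is called the reduced set here. Relative to the autosomal median, the protein-coding level of 12.6 in male and 13.3 in female fibroblasts became 7.53 and 8.36 with a minimum RPKM of 1, and 35.0 and 34.3 with autosomal genes at 0 included. In ovary this level was 0.00274, and became 0.00446 with genes at 0 included and 0.00611 in the reduced set. The ovary protein-coding median behind 0.00274 and 0.00446 is the value of ND2, which rests on 1 fragment. The median ovary to female fibroblast ratio, 0.000186, is likewise that of ND2 with its 1 ovary fragment. It became 0.000862 in the reduced set and 0.00508 with a pseudocount of 1. The share of ATP8 among protein-coding values fell from 34.4 to 7.66% in males and from 37.4 to 8.98% in females when weighted by length. That of COX1, 28.0 and 24.3%, became 45.9 and 42.9% when weighted by length, 69.5 and 67.9% in the reduced set and 42.7 and 38.8% without ATP8. With a minimum of 1 RPKM, 10 in place of 18 tRNA-sized loci remained in males. With the mean in place of the median as reference, 12S rRNA stood at 0.0460 and 0.0485 and 16S rRNA at 0.226 and 0.260 in male and female fibroblasts. In ovary, 16S rRNA stood at 8.64 times the protein-coding median, at 3.32 times the mean, and at 3.88 times the median of the reduced set. The first of these again divides by the 1 fragment of ND2. Of the alternatives chosen after seeing the data, a step of 0.5 base gave 127459 and 178322 read equivalents in males and females, reads of 80 bases gave 60543 and 84703, and the line gave 46 ovary fragments. No ovary level or ratio could be had with a minimum of 1, since no mitochondrial FPKM reached it, nor a share of ATP8 in the reduced set or without the highest locus. Shares of mapped bases do not depend on the size of the step. At this depth, loci with 1 or 2 ovary fragments cannot be ordered.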

Other observations

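tRNA-sized loci were also read by the strand that encodes them in vertebrates, a grouping made after the values had been seen. The 8 tRNA loci on the strand of ND6 had a highest RPKM of 3.41 in male and 8.55 in female fibroblasts (tRNA-Glu in both), with 7 of 8 above 0 in each library. The 14 on the other strand reached 87.1 and 162 RPKM (tRNA-Leu(UUR)), with 11 of 14 above 0 in males and 13 of 14 in females. In males the median was 0.920 RPKM on the ND6 strand and 0.564 on the other over all members, but 1.09 and 2.60 among the members above 0. In females these medians were 2.09 and 2.04 over all members and 2.41 and 2.08 above 0. Relative M:F ratios from summed read equivalents were 0.509 (0.245 to 0.971) on the ND6 strand and 0.623 (0.533 to 0.727) on the other. The first rests on 13.2 read equivalents in males and 36.3 in females. The second rests on 239 and 534, of which tRNA-Leu(UUR) held 128 and 290 and tRNA-Arg 74.6 and 152. Neither ratio therefore describes its strand as a whole, and the intervals are not those of counted reads. Within the cluster of 5 tRNA loci between ND2 and COX1, the RPKM in female fibroblasts was 5.54 for tRNA-Trp, 3.88 for tRNA-Ala, 1.57 for tRNA-Asn, 0.411 for tRNA-Cys and 0 for tRNA-Tyr, and the male values of 3.58, 1.27, 0.746, 0.50 and 0 had the same order.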
